A study of Mus musculus with 4 samples.

Results

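The glutathione synthesis and NRF2 genes are 10 genes taken by name from the 19609 usable gene rows of a table of mean nuclear expression in mouse kidney: Nfe2l2, Keap1, Gclc, Gclm, Gss, Gsr, Txnrd1, Srxn1, Nqo1 and Hmox1. All 10 had a row, and no level or difference entered the rule, although earlier results of these data were known when the genes were chosen. Single nucleus RNA sequencing (snRNA-seq) was performed on kidney cortex of 4 male mice of mixed strain, with 1 mouse in each condition. The control mouse carried TRE-hKLF6, a human KLF6 transgene that stays silent without a driver. The hKLF6OE mouse carried CAG-rtTA and TRE-hKLF6, so that doxycycline can turn the transgene on in the whole body and not in the tubule alone. The control AAI and hKLF6OE AAI mice had these same genotypes and received 1 injection of 2 mg/kg aristolochic acid I (AAI), a plant nephrotoxin, 24 hours before collection. Each mouse was fed doxycycline, as the study's methods state. Their ages were not given in the sources used here. The table has no row for the human transgene, so its induction could not be checked in these values.

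NRF2, the product of Nfe2l2, is a transcription factor that turns on antioxidant and detoxifying genes. KEAP1 holds it in check by handing it to a ubiquitin ligase, and electrophiles or oxidants that modify KEAP1 let NRF2 build up. Much of this control is exerted on the protein, which snRNA-seq does not measure. Glutathione, the main thiol of the cell, is built in a pair of steps: glutamate cysteine ligase joins glutamate to cysteine, and glutathione synthetase adds glycine. The proximal tubule takes up and breaks down much of the body's glutathione, and its S3 segment is a main site of AAI injury. NQO1 is a quinone reductase that detoxifies quinones and is also known to reduce the nitro group of AAI, the step that makes AAI reactive towards DNA.

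NRF2 acts through the antioxidant response element, and the promoters of the members are shown because the results below turn on genes that are classed as NRF2 targets. RefSeq windows of 300 bases on the GRCm38.p6 assembly, from 250 bases before to 50 bases after a start site, were held for 7 members, with 9 windows in all. The core letters TGACNNNGC were searched on both strands. They occurred in 4 of these 9 windows, each of a different member, and in 12.4% of the 32851 windows of all genes. Within the 250 bases before the start they occurred in 1 window each of Gclm, Txnrd1 and Nfe2l2, and in 10.2% of all windows. These stretches are printed 5′ to 3′ on the strand of the gene with the match in capitals. The match lay 134 to 126 bases before the start of Gclm, on the opposite strand, at chr3:122245307-122245556 for the whole stretch. It lay 92 to 84 bases before 1 of the 3 starts of Txnrd1, also on the opposite strand, in the stretch chr10:82858956-82859205. In Nfe2l2 it lay 240 to 232 bases before the start on the strand of the gene, in the stretch chr2:75704664-75704913, which is on the minus strand of the chromosome.
Gclm: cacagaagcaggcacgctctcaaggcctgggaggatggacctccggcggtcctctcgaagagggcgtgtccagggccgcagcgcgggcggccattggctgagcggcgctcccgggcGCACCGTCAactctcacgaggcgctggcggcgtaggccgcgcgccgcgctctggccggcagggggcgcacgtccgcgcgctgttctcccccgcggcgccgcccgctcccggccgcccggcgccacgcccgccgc
Txnrd1: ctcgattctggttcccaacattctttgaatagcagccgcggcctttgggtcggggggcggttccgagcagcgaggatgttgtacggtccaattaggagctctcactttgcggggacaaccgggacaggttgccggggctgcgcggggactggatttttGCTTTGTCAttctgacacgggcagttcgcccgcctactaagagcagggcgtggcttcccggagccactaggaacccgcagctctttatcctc
Nfe2l2: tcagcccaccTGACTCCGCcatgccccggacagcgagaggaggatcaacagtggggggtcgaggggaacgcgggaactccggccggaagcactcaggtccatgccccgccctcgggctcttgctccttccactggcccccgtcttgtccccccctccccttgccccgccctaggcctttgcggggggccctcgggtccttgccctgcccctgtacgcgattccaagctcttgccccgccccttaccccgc
In Srxn1 the match lay after the start. Gss, Keap1 and Nqo1 had no match in these windows, and Gclc, Gsr and Hmox1 had no window in the reference used. A match of letters is a description of the sequence and does not show that a protein binds there.

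Each value is the mean over the nuclei of 1 cluster in 1 mouse of counts scaled to 10000 per nucleus, and is called a level here. Levels were held for 23 clusters and 4 mice, 92 columns in all. Differences are given as log2(level + 1) of one side minus that of the other, which understates the change of genes with low levels. A gene entered a comparison when its larger side was at least 0.5, and counts as higher or lower where the difference reached 0.2. A gene with 1 side under 0.5 entered through its larger side alone, and could hardly have counted in the other direction. Nqo1 and Hmox1 entered some of the counts below in this way. With 1 mouse per condition there is no spread between mice of a condition, so no test, standard error or p-value is given, and every count describes these 4 mice. The number of nuclei and reads behind a column is unknown. The share of genes at 0, which rises as fewer nuclei are averaged, was 15.1% to 31.3% in the normal proximal tubule clusters and reached 63.4% in small clusters. The clusters were made from the same expression values, so differences between clusters are descriptions. Transcripts of proximal tubule marker genes were found in other clusters as well. Their level was summed over Lrp2, Cubn, Slc34a1, Hnf4a, Slc5a2, Slc5a12, Slc22a6, Cyp7b1, Slc7a13, Slc22a7 and Atp11a. The sum was 83.8 to 107 in EC-1 and 39.0 to 57.1 in macrophages, against 13.4 to 22 in the intercalated cell cluster IC-B-2. EC-1 has the study's endothelial name, but the endothelial markers Flt1, Emcn, Pecam1 and Kdr were highest in EC-2 and next in macrophages. The sum in EC-1 lay within that of PT-S3-3, 82.7 to 124.

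By the mean of the 4 mice, the glutathione synthesis genes were highest in PT-S3-2 and PT-S3-3, clusters of the S3 segment of the proximal tubule. The remaining S3 cluster, PT-S3-1, had rank 12 of 23 for Gclc, 6 for Gclm and 4 for Gss. In the control mouse Gclm was highest in InjuredPT-A, at 5.37, in a column with 62.6% of genes at 0. Gclc (chromosome 9, 77754535 to 77794485 on GRCm38, plus strand) encodes the catalytic subunit of glutamate cysteine ligase, the enzyme of the rate-limiting step. Its level in the cluster PT-S3-2 was 39.5 in control, 17.4 in control AAI, 15.2 in hKLF6OE and 14.8 in hKLF6OE AAI. In the mean of the clusters PT-S1-S2-1 and PT-S1-S2-2 it was 4.05, 1.87, 2.16 and 1.71 in the same order of mice, so every mouse had more Gclc in PT-S3-2. The differences were 3.00, 2.68, 2.36 and 2.55 on the log2 scale.

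Gclm (chromosome 3, 122245557 to 122270732, plus strand), the modifier subunit of the same ligase, had levels of 4.40, 5.39, 3.79 and 4.63 in PT-S3-2 of control, control AAI, hKLF6OE and hKLF6OE AAI. In PT-S1-S2 its mean levels were 2.30, 1.57, 1.79 and 1.30. Gss (chromosome 2, 155563181 to 155592810, minus strand), glutathione synthetase, had levels of 5.59, 6.27, 4.96 and 6.33 in PT-S3-2, and 1.48, 1.55, 1.21 and 1.5 in PT-S1-S2. For both genes the lowest mouse in PT-S3-2 lay above the highest mouse in PT-S1-S2. Nqo1 was the other member that was higher in PT-S3-2 in all 4 mice, by 0.37 to 0.79. It entered through PT-S3-2 alone, since its PT-S1-S2 means were 0.276, 0.253, 0.241 and 0.197 in the same order of mice, under the minimum. Thus 4 of the 7 members that entered this comparison were higher and 0 were lower, where 13.8% of all 3709 genes tested were higher and 17.5% were lower in all 4 mice.

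Against the mean of the 16 clusters outside the proximal tubule, the normal proximal tubule had more Gclc, Gclm, Gss and Gsr in every mouse. These were 4 of 6 members tested, with 0 lower, while 20.2% of all 4136 genes tested were higher and 22% were lower. The margin was 0.39 to 1.15 for Gclc, 0.44 to 0.94 for Gclm, 0.95 to 1.38 for Gss and 0.26 to 0.42 for Gsr.

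**Figure D1:**
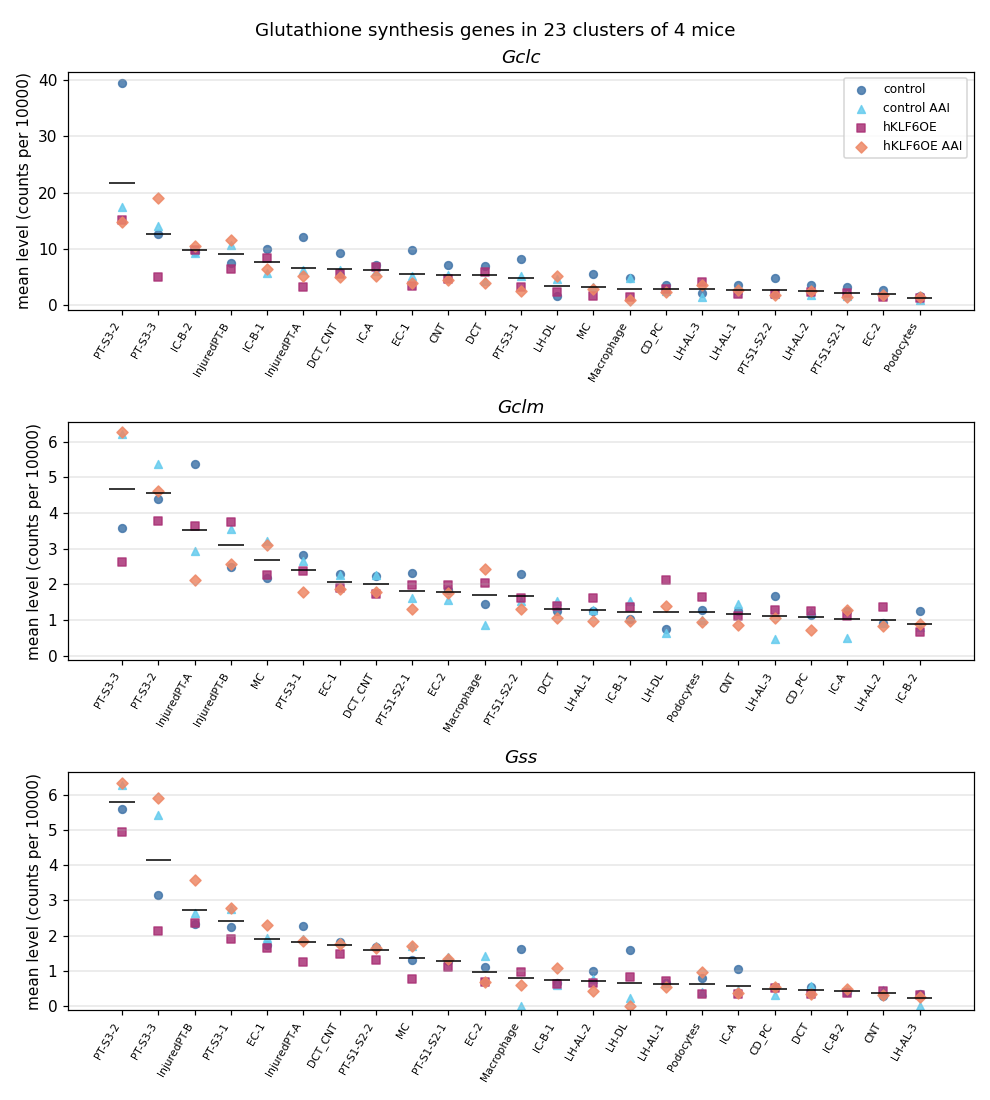
Levels of Gclc, Gclm and Gss (mean counts per 10000 per nucleus, vertical axis) in each of 23 clusters (horizontal axis, ordered by the mean of the 4 mice), with 1 point per mouse and a black line at the mean. PT-S3-2 and PT-S3-3 stand first for all 3 genes, and the control mouse at 39.5 lies far above the other mice for Gclc in PT-S3-2.

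The order of the clusters below the leading ones was loose. When neighbours in the order of the 4-mouse means were compared, the ranges over the mice overlapped in all 22 pairs for Gclc, Gclm and Gss, as the plot of levels by cluster shows. Outside the proximal tubule, Gclc had its highest 4-mouse mean in the type B intercalated cell cluster IC-B-2, with levels of 9.50, 9.35, 9.84 and 10.5 in control, control AAI, hKLF6OE and hKLF6OE AAI (mean 9.79, SD 0.507, n = 4 mice of different conditions). Gclm and Gss were low in this cluster, with means of 0.897 and 0.418. Of the 3 genes, Gclc alone was thus high there compared with its own levels in other clusters. Among the 23 clusters IC-B-2 had rank 3 for Gclc, rank 23 for Gclm and rank 21 for Gss.

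Gsr (chromosome 8, 33652523 to 33698163, plus strand) encodes glutathione reductase, which returns oxidized glutathione to its reduced form. It was spread evenly, with 4-mouse means between 0.572 in LH-AL-3 and 2.10 in InjuredPT-A. Without AAI, the InjuredPT-A columns had 62.6% of genes at 0 in control and 40.8% in hKLF6OE. In PT-S3-2 its levels were 1.18 in control, 0.815 in control AAI, 1.22 in hKLF6OE and 1.06 in hKLF6OE AAI, and in PT-S1-S2 they were 1.37, 0.975, 1.27 and 1.42. Unlike the synthesis genes, Gsr was therefore not higher in PT-S3-2 in any of the 4 mice.

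The regulators had another distribution. Nfe2l2 (chromosome 2, 75675513 to 75704641, minus strand) had its highest 4-mouse mean in IC-B-2, with levels of 3.95, 6.77, 5.38 and 4.76 in control, control AAI, hKLF6OE and hKLF6OE AAI. Another intercalated cluster, IC-B-1, was next by the mean, with 3.67, 3.67, 3.45 and 3.64 (SD 0.106, n = 4 mice of different conditions). The ranges of these clusters did not overlap. The order was not that of every mouse, since LH-AL-3 stood first in hKLF6OE at 6.08 and InjuredPT-A was next after IC-B-2 in both AAI mice. In the normal proximal tubule the mean levels were 1.21, 1.99, 1.07 and 1.83, below the mean over the 16 clusters outside the tubule in all 4 mice (2.10, 2.42, 2.38 and 2.14). The differences were -0.49, -0.19, -0.71 and -0.15, so that Nfe2l2 passed the threshold in the 2 mice without AAI only. Whether the AAI mice differed from them was not tested.

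Keap1 (chromosome 9, 21229730 to 21239361, minus strand) was low everywhere. Its normal proximal tubule means were 0.228 in control, 0.255 in control AAI, 0.294 in hKLF6OE and 0.233 in hKLF6OE AAI, too low to enter any of the main comparisons. The highest single level was 1.53, in macrophages of the control AAI mouse, where 63.4% of genes were at 0. The other 3 mice had 0.298, 0.504 and 0.237 there.

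Txnrd1 (chromosome 10, 82833951 to 82897712, plus strand) encodes thioredoxin reductase 1, which keeps cytosolic thioredoxin reduced. Without AAI it was nearly flat over the normal proximal tubule, at 0.842 in control and 0.912 in hKLF6OE. Srxn1 (chromosome 2, 152105516 to 152111376, plus strand), sulfiredoxin, which repairs overoxidized peroxiredoxins, had a highest level of 0.570 in any column and entered none of the main comparisons. Nqo1 (chromosome 8, 107388225 to 107403206, minus strand) was highest in PT-S3-3 and PT-S3-2, with 4-mouse means of 1.62 and 0.849, and had a mean of 0.25 in PT-S1-S2-1 and 0.234 in PT-S1-S2-2. Outside the tubule its 4-mouse means did not exceed 0.385. Hmox1 (chromosome 8, 75093621 to 75100589, plus strand), heme oxygenase 1, had its highest 4-mouse mean in InjuredPT-A, at 0.742. The highest mouse there was control, at 1.08, with 62.6% of genes at 0.

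**Figure D2:**
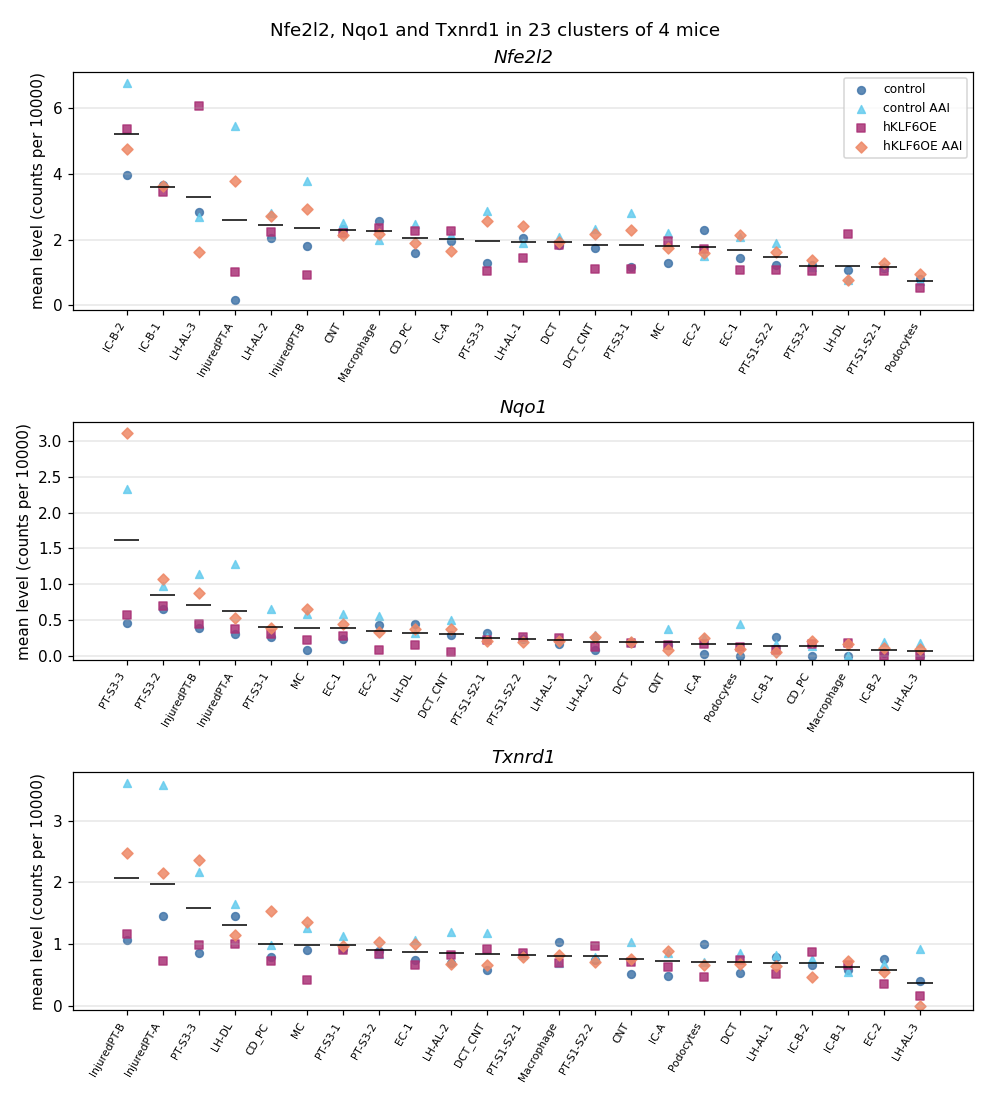
Levels of Nfe2l2, Nqo1 and Txnrd1 (mean counts per 10000 per nucleus, vertical axis) in 23 clusters (horizontal axis, ordered by the mean of the 4 mice), with 1 point per mouse and a black line at the mean. By the mean, Nfe2l2 leads in IC-B-2, Nqo1 in PT-S3-3, where the AAI mice stand at 2.33 and 3.11, and Txnrd1 in the injured clusters of the AAI mice.

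The effect of hKLF6 overexpression without injury was examined in the normal proximal tubule first. Gclc was lower in hKLF6OE, at 5.59 against 13.7 in control, a difference of -1.16. Gclm, at 2.47 against 3.08, and Gss, at 2.28 against 2.79, were lower by smaller margins of -0.23 and -0.21. The 3 genes that make glutathione were thus the 3 of 6 tested members that were lower, and 0 were higher, beside 9.33% of all 4041 tested genes lower and 7.84% higher. The median over the tested members was -0.16, against -0.03 over all genes tested. Nfe2l2 (1.07 against 1.21), Gsr (1.23 against 1.41) and Txnrd1 (0.912 against 0.842) differed by less than the threshold.

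Gclc was lower in each of the 5 normal clusters, and the other members were not. Its levels in hKLF6OE and control were 3.30 and 8.18 in PT-S3-1, 15.2 and 39.5 in PT-S3-2, 5.13 and 12.7 in PT-S3-3, 2.22 and 3.19 in PT-S1-S2-1, and 2.09 and 4.92 in PT-S1-S2-2. In PT-S3-2 and PT-S3-3 no gene of the 4047 and 3992 tested had a larger negative difference than Gclc (-1.32 and -1.16). Of the genes tested in all 5 clusters, 3.31% were lower in all of them. Across the kidney, Gclc was lower in 16 of 23 clusters and higher in 2, and 2.56% of the genes tested in all 23 clusters were lower in as many.

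The control mouse without AAI was the one that stood apart for Gclc. It had the highest level of the 4 mice in 17 of 23 clusters, among them cells that are not of the proximal tubule, such as connecting tubule (CNT: 7.26 in control, 5.47 in control AAI, 4.64 in hKLF6OE, 4.45 in hKLF6OE AAI). Proximal tubule RNA in the other clusters moved with it in part: the summed marker level in EC-1 was 107 in control and 83.8 to 87.0 in the other mice, and its part in the result was not tested. In CNT this sum was 23.2 in control and 22.9 in hKLF6OE, and Gclc was 7.26 and 4.64. The sum does not measure carried Gclc, which in the normal tubule itself was 13.7 in control and 5.59 in hKLF6OE. In IC-B-2, with sums of 13.4 to 22, the Gclc levels of the 4 mice lay between 9.35 and 10.5. The comparison of hKLF6OE with control and that of control AAI with control use this same mouse.

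With AAI in both mice, the genotypes hardly differed. Gclc was 8.00 in hKLF6OE AAI and 8.10 in control AAI, a difference of -0.02. Gsr was the only one of 7 tested members past the threshold, at 1.54 against 1.11 (0.27), beside 6.32% of all 3942 tested genes higher and 7.74% lower. The mean of the 5 clusters hid opposite differences for Gclc: it was lower in hKLF6OE AAI in PT-S3-1 (2.63 against 5.21) and PT-S3-2 (14.8 against 17.4), and higher in PT-S3-3 (19.1 against 14.1). The median over the members was 0.01, as it was over all genes tested. Across the kidney, Nfe2l2 and Txnrd1 were each lower in hKLF6OE AAI in 8 of 23 clusters and higher in 1. Of the genes tested in all 23 clusters, 13.4% were lower in as many. Gclm was lower in 9 and higher in 4, and 9.53% of these genes were lower in as many.

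**Figure D3:**
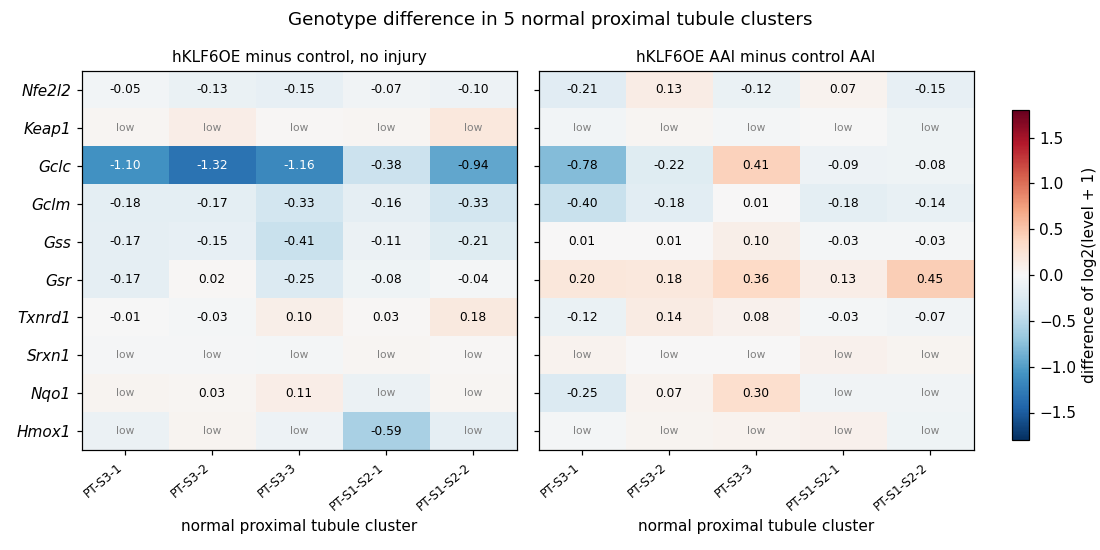
Difference of log2(level + 1) between the genotypes for each of the 10 genes (rows) in each of 5 normal proximal tubule clusters (columns), without AAI on the left and with AAI on the right; red is higher and blue lower in the overexpressing mouse, and "low" marks pairs with both levels under 0.5. The Gclc row is blue in all 5 clusters without AAI, between -0.38 and -1.32, and is mixed with AAI.

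Next, AAI and uninjured mice of the same genotype were set against each other. In the normal proximal tubule of the control genotype, Nfe2l2 (1.99 against 1.21), Gss (3.51 against 2.79), Nqo1 (0.894 against 0.384) and Txnrd1 (1.15 against 0.842) were higher with AAI, and Gclc (8.10 against 13.7) was lower. These were 4 higher and 1 lower of 7 tested, where 11.7% of all 4052 genes tested were higher, 456 genes were lower and 23% passed in either direction. In the hKLF6OE genotype Nfe2l2 (1.83 against 1.07), Gclc (8.00 against 5.59), Gclm (3.05 against 2.47), Gss (3.60 against 2.28) and Nqo1 (0.994 against 0.411) were higher, which makes 5 of 7, with 0 lower, beside 19.5% and 15.4% of all 4133 genes. In both genotypes Nqo1 entered through the AAI side alone. The medians over the members were 0.23 and 0.45, against 0.01 and 0.05 over all genes tested. Much of this came from 1 cluster: without PT-S3-3 in the mean, 1 member was higher and 2 were lower in the control genotype, and 2 were higher and 0 lower in hKLF6OE.

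Of the 5 normal clusters, PT-S3-3 had the most members that were higher in both genotypes. Nqo1 was 0.451 in control and 2.33 in control AAI, and 0.571 in hKLF6OE and 3.11 in hKLF6OE AAI. Both AAI mice lay above both uninjured mice, with differences of 1.20 and 1.39 on the log2 scale. Of all genes tested, 34 of 4210 in the control genotype and 36 of 4254 in hKLF6OE, Nqo1 included, had a difference at least as large.

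The synthesis genes were higher in the same cluster. Gclm was 3.57 in control and 6.21 in control AAI, and 2.63 in hKLF6OE and 6.26 in hKLF6OE AAI. Gss was 3.14 and 5.42 in the control genotype, and 2.13 and 5.90 in hKLF6OE. For Gclm and Gss, too, both AAI mice lay above both mice without AAI. Gclc differed between the genotypes. It was 12.7 and 14.1 in the control genotype, a difference of 0.14 that did not pass the threshold, and 5.13 and 19.1 in hKLF6OE, a difference of 1.72.

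Nfe2l2 itself was 1.28 in control, 2.88 in control AAI, 1.06 in hKLF6OE and 2.56 in hKLF6OE AAI. Txnrd1 was 0.853, 2.17, 0.985 and 2.36 in the same order. Gsr was 1.69 in control and 1.49 in control AAI, and 1.26 in hKLF6OE and 2.19 in hKLF6OE AAI, so that it was higher in the overexpressing mouse only, and this contrast between the genotypes was not tested. In all, 5 of 7 tested members were higher in both genotypes and 0 were lower, where 14.9% of the 3954 genes tested in both were higher and 11% lower. In the control genotype Nqo1 entered through the AAI side alone. The median over the tested members was 0.66 in the control genotype and 1.00 in hKLF6OE, against 0.03 and 0.06 over all genes tested. Keap1, Srxn1 and Hmox1 stayed under the minimum level in PT-S3-3, with highest levels of 0.316, 0.179 and 0.226.

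Beyond the normal tubule, the most members higher with AAI in both genotypes were in InjuredPT-B and in the cluster MC. In InjuredPT-B these were Nfe2l2, Gclc, Gsr, Nqo1 and Txnrd1, 5 of 7 tested with 0 lower, where 25.0% of all 4398 genes tested were higher and 14.4% lower. The columns of this cluster in the mice without AAI had 51.3% and 55.7% of genes at 0, against 27.0% and 29.7% with AAI. In MC they were Gclm, Gss, Nqo1 and Txnrd1, 4 of 7 tested with 0 lower, where 14.7% of all 4642 genes were higher and 8.79% lower. The MC columns had 36.4% to 40.1% of genes at 0, and a summed proximal tubule marker level of 48.3 to 62.1. The part of proximal tubule RNA in the MC values was not tested.

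Markers of the cluster itself moved with AAI. Cyp7b1, a bile acid synthesis enzyme that marks PT-S3-2, was 0.746 in control and 11.5 in control AAI, and 1.22 in hKLF6OE and 20.1 in hKLF6OE AAI. Slc34a1, the proximal tubule phosphate transporter, was 56.8 and 9.94 in the control genotype, and 41.8 and 4.16 in hKLF6OE. The other S3 markers were mixed. Slc7a13 was 20.7 and 22.2 in the control genotype and 13.9 and 18.6 in hKLF6OE, Slc22a7 was 0.892 and 0.407, then 1.39 and 0.473, and Atp11a was 10.3 and 9.93, then 8.34 and 9.10. The part of this shift in the values of the members was not tested. With AAI, Nqo1 in PT-S3-3 (2.33 and 3.11) exceeded its level in PT-S3-2 of the same mouse (0.980 and 1.07). So did Txnrd1 (2.17 and 2.36 against 0.848 and 1.04), Nfe2l2 (2.88 and 2.56 against 1.17 and 1.37), Gclm (6.21 and 6.26 against 5.39 and 4.63) and Gsr. Gss did not (5.42 and 5.90 against 6.27 and 6.33). Gclc was below its PT-S3-2 level in control AAI (14.1 against 17.4) and above it in hKLF6OE AAI (19.1 against 14.8). Markers of injured proximal tubule were also higher with AAI in PT-S3-3: the summed level of Havcr1, Krt20, Lcn2, Vcam1 and Cdkn1a was 0.0345 in control and 0.565 in control AAI, and 0.0321 in hKLF6OE and 0.531 in hKLF6OE AAI. Within it, Cdkn1a was 0 and 0.474 in the control genotype and 0.00605 and 0.249 in hKLF6OE, and Havcr1 was 0.0345 and 0.0909, then 0.0167 and 0.204. This rise was not particular to PT-S3-3, since the summed level was higher with AAI in each of the other normal clusters as well. In PT-S3-1 it was 0.0340 and 0.674 in the control genotype, and 0.0352 and 0.681 in hKLF6OE. In CNT it was 0 and 0.461, then 0.0127 and 0.513. The part of these markers in the result was not tested.

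The remaining normal clusters showed mixed differences with AAI. The largest were those of Gclc in the control genotype, where it was lower by -1.14 in PT-S3-2 (17.4 against 39.5) and by -0.97 in PT-S1-S2-2 (2.01 against 4.92), while in hKLF6OE the differences were -0.03 and -0.12, short of the threshold. In PT-S3-2, Gclm (0.24 and 0.23) and Nqo1 (0.26 and 0.29) were higher in both genotypes, as were 6.17% of all genes tested there. In PT-S3-1, Nfe2l2 was higher by 0.81 and 0.65 and Gss by 0.21 and 0.38, while Gclc was lower (-0.56 and -0.24), beside 10.8% of all genes higher and 8.97% lower. In PT-S1-S2-1 the ligase subunits were both lower, Gclc with differences of -0.62 and -0.33, and Gclm with -0.35 and -0.36, beside 4.52% of all genes lower. In PT-S1-S2-2 only Nfe2l2 passed in both genotypes, at 0.38 and 0.32, beside 7.38% of all genes higher. Nfe2l2 was thus higher with AAI in both genotypes in 3 of the 5 normal clusters, and Nqo1 was under the minimum level in both PT-S1-S2 clusters.

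**Figure D4:**
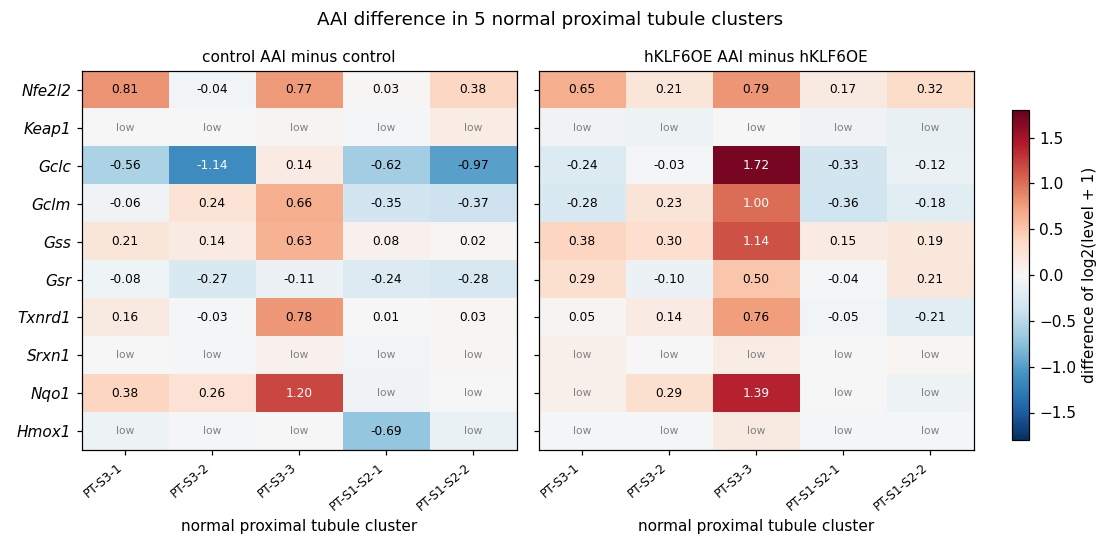
Difference of log2(level + 1) with AAI against no injury for each of the 10 genes (rows) in each of 5 normal proximal tubule clusters (columns), control genotype on the left and hKLF6OE on the right; red is higher and blue lower with AAI, and "low" marks pairs with both levels under 0.5. The PT-S3-3 column holds the largest positive values in both genotypes, 1.20 and 1.39 for Nqo1 and 1.72 for Gclc in hKLF6OE.

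Hmox1, which opens the heme ring and is induced by many stresses, did not reach the minimum level in the normal proximal tubule. Its means were 0.287 in control, 0.112 in control AAI, 0.118 in hKLF6OE and 0.128 in hKLF6OE AAI. The control value was highest in PT-S1-S2-1, where control had 0.797 and the other 3 mice had 0.112, 0.196 and 0.169. In this cluster Hmox1 thus entered through the control mouse alone. It was lower in control AAI, beside 12.5% of all genes, and in hKLF6OE, beside 10.7%. Control was also the highest mouse in PT-S1-S2-2, at 0.210, and in PT-S3-1, at 0.171.

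InjuredPT-A and InjuredPT-B are the clusters of injured proximal tubule nuclei, and were compared with the normal proximal tubule of the same AAI-treated mouse. Nfe2l2 in InjuredPT-A was 5.46 in control AAI and 3.78 in hKLF6OE AAI, against 1.99 and 1.83 in the normal tubule. Txnrd1 was 3.58 and 2.16 against 1.15 and 1.17, Gsr was 2.63 and 2.21 against 1.11 and 1.54, and Hmox1 was 0.611 and 0.933 against 0.112 and 0.128. The synthesis genes went the other way. Gclc was 6.29 and 5.26 against 8.10 and 8.00, and Gss was 1.90 and 1.84 against 3.51 and 3.60. In total 4 of 8 tested members were higher in both mice and 2 were lower, which is near the background in this cluster, where 43.3% of all 5008 genes tested were higher and 27.0% lower. Hmox1 entered through InjuredPT-A alone.

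The mice did not move alike for every member of InjuredPT-A. Nqo1 was 1.28 against 0.894 in control AAI, which is higher by 0.27, and 0.531 against 0.994 in hKLF6OE AAI, a difference of -0.38. Gclm was lower than in the normal tubule by -0.19 in control AAI, short of the threshold, and by -0.37 in hKLF6OE AAI. The medians over the tested members were 0.40 and -0.02 in these mice, against 0.19 and 0.15 over all genes tested.

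In InjuredPT-B, Nfe2l2 (3.80 and 2.92), Gsr (2.46 and 2.13), Txnrd1 (3.61 and 2.48) and Gclc (10.8 and 11.7) were higher than in the normal tubule of control AAI and hKLF6OE AAI. These were 4 of 7 tested, and 0 were lower in both mice, where 23.4% of all 4148 genes tested were higher and 13.1% lower. Txnrd1 had the largest differences, 1.10 and 0.68. For Gclc the direction turned with the reference: its differences from the normal tubule were 0.38 and 0.49, and against the 3 PT-S3 clusters alone their mean was -0.11. Gss was 2.63 and 3.57 against 3.51 and 3.60, and Nqo1 was 1.14 and 0.882 against 0.894 and 0.994, with neither past the threshold in both mice.

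**Figure D5:**
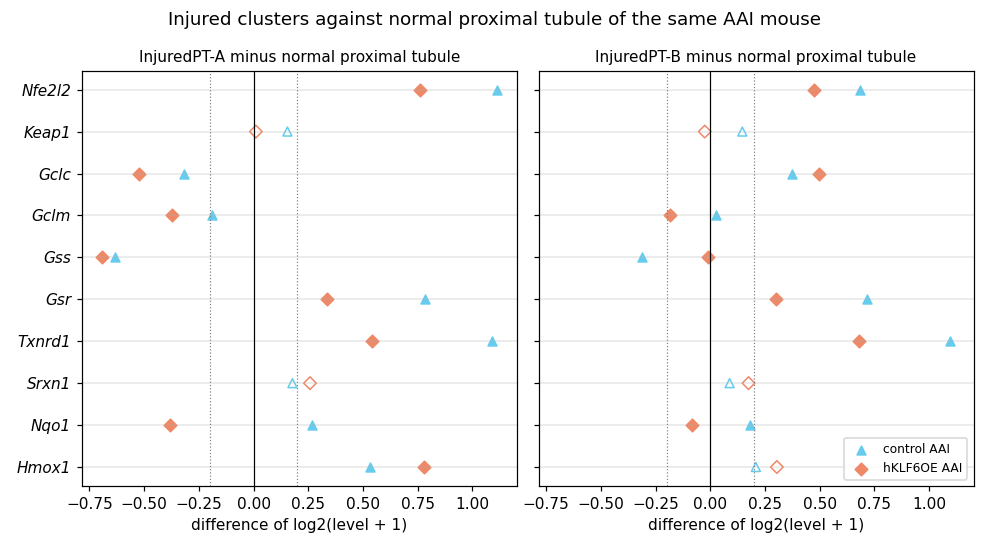
Difference of log2(level + 1) between each injured cluster and normal proximal tubule (5 clusters) within 1 AAI mouse (horizontal axis) for each of the 10 genes (vertical axis), with a triangle for control AAI and a diamond for hKLF6OE AAI. Open symbols are genes under the minimum level in at least 1 mouse, and dotted lines mark a difference of 0.2 either way; Nfe2l2, Gsr and Txnrd1 lie to the right of it in both clusters and both mice.

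Other genes of the pathway were taken from 6 lists. With AAI in the normal proximal tubule, the genes that passed in the same direction in both genotypes were Por, Slc3a1, Hagh, Me1 and Prdx5. Por, the reductase that hands electrons to cytochromes P450 and can also reduce AAI, was 3.41 in control, 4.51 in control AAI, 3.06 in hKLF6OE and 4.32 in hKLF6OE AAI. In PT-S3-3 it was 3.51 and 5.14 in the control genotype and 3.14 and 6.57 in hKLF6OE, and so was higher in the same cluster as Nqo1. Slc3a1, the heavy chain of the cystine transporter, was higher by 0.30 and 0.27. Lower were Hagh, a glyoxalase enzyme that releases glutathione (-0.49 and -0.44), Me1, the cytosolic malic enzyme that makes NADPH (-0.47 and -0.26), and Prdx5, a peroxiredoxin (-0.26 and -1.16). Lower levels of Hagh, Me1 and Prdx5 were also found in clusters outside the proximal tubule. Prdx5 was lower in both genotypes in every cluster outside the proximal tubule but IC-B-1 and DCT_CNT. Hagh was lower in DCT, LH-AL-2, CD_PC, MC, IC-B-1, DCT_CNT, podocytes and IC-A, and Me1 in CNT, DCT_CNT and LH-AL-3.

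The lists were counted beside the shares of all genes given above, 11.7% higher and 456 of 4052 genes lower in the control genotype, and 19.5% higher and 15.4% lower in hKLF6OE. Of 26 other NRF2 target genes listed, 24 had a row, and 10 were tested in the control genotype, with 2 higher and 3 lower with AAI (median -0.12). In hKLF6OE 9 were tested, with 0 higher and 4 lower (median -0.18). Of the genes of glutathione use, breakdown and transport, 2 were higher and 1 lower of 12 in the control genotype, and 1 higher and 7 lower of 12 in hKLF6OE. Of the thioredoxins and peroxiredoxins, 0 were higher and 1 lower of 6 in the control genotype, and 1 higher and 3 lower of 7 in hKLF6OE. Of 6 tested NRF2 partners and regulators, 0 passed in the control genotype and 2 were higher in hKLF6OE. Of the iron and heme list 1 gene was tested and did not pass. In PT-S3-3, 4 of 10 other targets were higher and 2 lower in the control genotype, and 2 of 8 were higher and 3 lower in hKLF6OE. Over all genes 23% were higher and 18.6% lower in this cluster in the control genotype, and 29.1% and 21% in hKLF6OE.

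The lists were then counted in the injured clusters. In InjuredPT-A 10 of 12 other NRF2 targets, 8 of 9 thioredoxins and peroxiredoxins, 7 of 14 genes of glutathione use, 6 of 10 partners and 2 of 3 iron and heme genes were higher in both mice, with 1, 1, 2, 1 and 0 lower, beside 43.3% of all genes higher and 27.0% lower. In InjuredPT-B these counts were 2 of 10, 1 of 7, 2 of 12, 3 of 5 and 1 of 2, with 0, 0, 1, 0 and 0 lower, beside 23.4% of all genes higher and 13.1% lower, so that the first 3 of these lists had a smaller share higher than all genes. Mafg, a small MAF protein that pairs with NRF2 on DNA, was 19 and 15.6 in InjuredPT-A of control AAI and hKLF6OE AAI, against 3.30 and 3.44 in the normal tubule, and 4.60 and 4.21 in InjuredPT-B. Gpx1, a glutathione peroxidase, was 3.32 and 4.41 in InjuredPT-A against 1.81 and 1.59, and Prdx1, a peroxiredoxin, was 5.36 and 4.65 against 2.80 and 2.13. Fech, the last enzyme of heme synthesis, and Sesn2, a stress-induced sestrin, were also higher in both clusters and both mice, by 0.35 to 0.46 and by 0.27 to 0.59. Lower in both clusters were Por (-0.30 and -0.32 in InjuredPT-A, -0.36 and -0.40 in InjuredPT-B) and Slc3a1 (-0.94 and -1.02, then -0.58 and -0.75). The reference matters here. Set against InjuredPT-A of the mice without AAI, Gpx1 and Prdx1 were lower with AAI in both genotypes, beside 19.7% of all genes tested. Those columns without AAI had 62.6% and 40.8% of genes at 0.

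For hKLF6OE against control without injury, no gene of the 6 lists passed in the same direction both with and without AAI. Without AAI, 4 of 12 genes of glutathione use were higher and 0 lower, as were 3 of 6 thioredoxins and peroxiredoxins, with medians of 0.11 and 0.17, beside 7.84% of all genes higher and 9.33% lower. The other NRF2 targets were split, with 3 of 11 higher and 3 lower, and 1 of 6 partners was lower. With AAI, 0 genes of these lists were higher and 3 of 8 other targets, 2 of 12 genes of glutathione use and 1 of 7 thioredoxins were lower, beside 6.32% of all genes higher and 7.74% lower.

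Genes with the most similar pattern were sought over the 92 columns by Pearson's r of log2(level + 1), among 4164 genes. The columns share mice and clusters, and r is a description. Gss was closest to Slc6a18, a neutral amino acid transporter (r = 0.90), Gclm to Slc7a13, the cystine and acidic amino acid transporter of the S3 segment (r = 0.85), and Nqo1 to Ftcd, an enzyme of histidine breakdown (r = 0.80). Gsr was closest to Mia2 (r = 0.78), Txnrd1 to the drug efflux pump gene Abcb1b (r = 0.71), Gclc to Glt1d1 (r = 0.70) and Nfe2l2 to Etnk1 (r = 0.66). Nqo1 had rank 3 for Txnrd1 (r = 0.68), the only case of a member among the 3 most similar genes of another member. Keap1, Srxn1 and Hmox1 were too low to be placed.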

How the data were processed

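The deposited signal values were made by the authors: reads were counted with Cell Ranger on mouse pre-mRNA (mm10, which is GRCm38), nuclei were filtered and clustered in Seurat, and counts scaled to 10000 per nucleus were averaged over the nuclei of each cluster and mouse. The tools and build are from the submitters' processing notes and the study's methods. For these nuclei the sources used here name no step against doublets, so nuclei captured in pairs may be part of a mean. The scale was read from the values, since all 92 columns sum to 10000. Nuclear counts on pre-mRNA include introns and favour long genes, so levels are compared within a gene only. The table gives neither the depth nor the number of nuclei of a column, so no interval is given, and the number of nuclei limits the precision.

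Of 19632 rows, 23 with date-like names were left out. Cluster names follow the order of the study's marker sheets and were checked on marker genes. On these, the endothelial markers were highest in EC-2 and not in EC-1. Normal proximal tubule is the unweighted mean of 5 clusters. Differences used a pseudocount of 1, a minimum of 0.5 on the larger side and a threshold of 0.2, and where several mice were compared all had to pass in the same direction. Genes outside the members were named when they passed in the same direction in both comparisons of a pair, with at most 4 per list. The 3 most similar genes were sought for members with a highest level of at least 2. Members and lists were chosen with earlier results of these data known. The calling step was run on simulated data, in which genes at a level of at least 2 were changed by well over the threshold. This does not cover low levels, small differences or differences between mice. Python 3.11.15, numpy 2.4.6, pandas 2.3.3 and matplotlib 3.10.9 were used. Gene positions are from GENCODE. The study's chromatin, tissue and cell line data were not analysed here.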

Additional observations from a re-analysis of the deposited data

Results flagged for a closer look

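Averaged over the 5 normal proximal tubule clusters, the AAI difference of Gclc was -0.69 in the control genotype and 0.45 in hKLF6OE, so that the genotypes moved in opposite directions, and the difference between them was not tested. It had 1 mouse on each side. The opposite sign rested on the high level of the control mouse (13.7) and on PT-S3-3 in hKLF6OE, since without that cluster the value in hKLF6OE was -0.11. Gsr in PT-S1-S2-2 also moved in opposite directions with AAI, by -0.28 in the control genotype and 0.21 in hKLF6OE, and that difference was not tested either.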

How the results depend on the processing

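No paired analysis was possible because each condition had 1 mouse and no comparison had a test. For the same reason no replicate was left out. The alternatives were another pseudocount, minimum, threshold, centring, scaling and choice of clusters. The PT-S3-3 values and the means without PT-S3-2 or PT-S3-3 were added after the data were seen. Of 174 counts of higher or lower members under an alternative, 138 stayed within 1.5 times the reported count and 36 did not, and of 870 single differences 755 kept their call, 110 gained or lost it and 5 changed sign.

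A threshold of 0.5 left 1 member lower in hKLF6OE than control, 0 higher in hKLF6OE AAI, 0 higher with AAI in either genotype, 1 lower in InjuredPT-A, 1 higher in InjuredPT-B and 1 higher in the normal tubule than elsewhere. A threshold of 1 left 1 lower in hKLF6OE than control, 1 higher in PT-S3-3 with AAI in both genotypes, 2 higher in PT-S3-2 than PT-S1-S2 and 0 in the other comparisons. With a minimum of 2, 0 members were higher in hKLF6OE AAI than control AAI, and 1 and 3 were higher with AAI in the control and hKLF6OE genotypes. A pseudocount of 0.1 gave 2 lower with AAI in the control genotype and 1 lower in the normal tubule than elsewhere, and no minimum gave 2 lower with AAI in the control genotype.

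The choice of clusters mattered most for AAI. In the PT-S1-S2 clusters alone, 1 member was higher and 4 were lower with AAI in the control genotype, and 1 was higher and 2 were lower in hKLF6OE, where Gclc (-0.22) and Gclm (-0.28) changed sign. Without PT-S3-3, 1 was higher and 2 lower in the control genotype and 2 were higher in hKLF6OE, with Gclc at -0.11 and Gclm at -0.079. For InjuredPT-A, the uninjured mouse as the reference gave 1 lower and the hKLF6OE AAI mouse alone 4 lower. For InjuredPT-B, the PT-S3 clusters as the reference gave 2 lower and Gclc at -0.11, and the control AAI mouse alone gave 1 lower. The mean of the 4 mice gave 1 member lower in the normal tubule than elsewhere. Centring and the removal of mitochondrial and ribosomal protein genes moved no count by over 1.5 times. The cause of these changes was not tested.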
